A study of Mus musculus with 2 samples.

Results

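Collagens are the main structural proteins of the extracellular matrix. The genes described here are those whose symbol is Col, a type number, the letter a and a chain number and that have a protein coding transcript, with the cartilage genes Col2a1, Col9a1 and Col10a1 set aside. This rule gives 41 of the 55536 named genes. The RNA came from gastrocnemius, the large calf muscle, of female B6CASTF1/J mice aged 10 days, which are first generation hybrids between C57BL/6J and CAST/EiJ. The series has 1 group with no treatment or second genotype, sampled as biological replicates 1 and 2, each library made from 300 ng of total RNA with ribosomal RNA reduced and ERCC spike-in RNAs added. The labels give the replicates different sample numbers and the same donor entry, so it is not stated that each came from its own animal. The tables do not separate the parental alleles.

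A collagen molecule is a triple helix of 3 chains, and each chain carries a long stretch in which glycine recurs every 3 residues, since no larger side chain packs into the centre of the helix. Fibrillar collagens assemble into banded fibrils that give tendon, bone and the sheaths of muscle their tensile strength. Other collagens coat those fibrils, form networks in basement membranes such as the one around each muscle fibre, or sit in cell membranes. In skeletal muscle collagen genes are expressed mainly by fibroblasts, tendon cells, vessel cells and Schwann cells rather than by the fibres themselves.

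With 1 group there is no contrast between conditions, so the questions are which collagens the muscle held at this age, in what balance, and how far the 2 libraries differed. Expected counts summed to 35925081 in replicate 1 and to 39969380 in replicate 2, where an expected count is a number of reads after a model has divided those that match several transcripts. Levels are TPM, a share of all transcripts that corrects for transcript length, and are given per library or as mean ± SD over 2 libraries. No p is given, since a two-sided sign-flip test over 2 libraries cannot go below 0.5. Collagen genes took 3.05% ± 0.963 of the counts of named genes (3.73% in replicate 1 and 2.37% in replicate 2). Their TPM summed to 8990 in replicate 1 and 5728 in replicate 2, which was 1.60% ± 0.524 of the TPM of nuclear protein coding genes. In bulk tissue, fewer cells of a type and less RNA per cell cannot be told apart.

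The feature shared by the most abundant members can be read in their coding sequence. The exons below, from the mm10 genome with the GENCODE M21 annotation, are 54 bases long and come from the longest glycine stretch of the 3 most abundant collagen genes and of the type V gene Col5a2. They lie at chr11:94939904-94939957 on the plus strand (exon 8 of Col1a1), chr6:4515481-4515534 on the plus strand (exon 8 of Col1a2), chr1:45325360-45325413 on the plus strand (exon 6 of Col3a1) and chr1:45422386-45422439 on the minus strand (exon 10 of Col5a2). Capitals mark the glycine codons that recur every 3 codons.
Col1a1: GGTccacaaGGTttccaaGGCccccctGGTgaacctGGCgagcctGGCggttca
Col1a2: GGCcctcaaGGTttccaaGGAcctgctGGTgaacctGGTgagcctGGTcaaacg
Col3a1: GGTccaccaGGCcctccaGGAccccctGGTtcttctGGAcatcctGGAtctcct
Col5a2: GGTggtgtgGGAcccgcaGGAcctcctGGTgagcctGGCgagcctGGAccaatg

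Each of these exons starts with a glycine codon, holds 6 of them and ends in frame. They are the first exons of that length in each stretch and were not matched by position in the helix. Compared base by base without gaps, 42 of the 54 bases are identical between the Col1a1 and Col1a2 exons. The number is 35 between Col1a1 and Col3a1, 31 between Col1a2 and Col3a1, 33 between Col1a1 and Col5a2, and 37 between Col1a2 and Col5a2. All 428 coding exons that lie within the longest glycine stretch of the 10 fibrillar genes have a length that is a multiple of 9 bases, and 261 of them are 54 bases. The stretch, counted as triplets that start with a glycine codon, is 338 triplets long in Col1a1, 339 in Col1a2, 344 in Col3a1 and 216 in Col24a1, the shortest of the fibrillar class.

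The type IV chains are built differently. The longest stretch has 40 triplets in Col4a1 and 66 in Col4a2, and their glycine pattern is broken into 22 and 24 runs of at least 4 triplets. In the 6 type IV genes 1 of the 21 coding exons within the longest run has 54 bases. A break in Col4a1 between codons 525 and 549, at chr8:11227031-11227105 on the minus strand, shows 1 such interruption. It was picked by length and for lying with its flanks in 1 exon. Many other breaks are shorter, as between the runs that end at codon 223 and start at codon 226. Capitals mark the recurring glycine codons of both flanks. Between the last triplet of a run and the first of the next lie 7 codons without the pattern.
Col4a1: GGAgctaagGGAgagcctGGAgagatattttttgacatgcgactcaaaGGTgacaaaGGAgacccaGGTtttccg

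**Figure D1:**
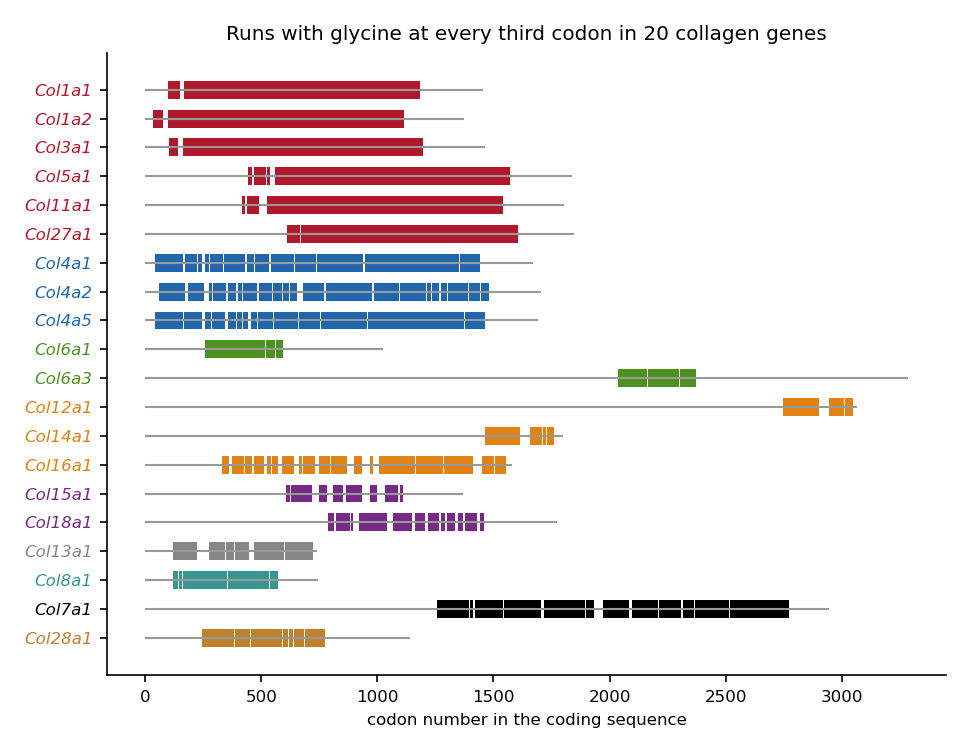
Position of glycine runs (filled bars, at least 4 triplets with glycine at every 3 codons) along the coding sequence of 20 collagen genes, in codons, with the whole coding sequence as a grey line and colours by class (fibrillar in red, type IV in blue, type VI in green, fibril associated in orange, multiplexins in purple, Col13a1 in grey, Col8a1 in teal, Col7a1 in black, Col28a1 in brown). Col1a1 has a run of 338 triplets, whereas Col4a1 has 22 runs of which the longest has 40.

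In the map of glycine runs the type VI chains show a short helix, with 87 triplets in the longest run of Col6a1 and 45 in that of Col6a3, inside coding sequences of 1025 and 3284 codons. The fibril associated genes Col12a1 and Col14a1 have 32 triplets in their longest run and 83 in all, near the end of the coding sequence. The multiplexins Col15a1 and Col18a1 have 30 triplets in their longest run, and 118 and 177 in all, spread over 12 and 16 runs. The 8 genes with a run of at least 300 triplets held 81.1% ± 3.22 of collagen TPM.

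Of the 41 genes, 32 were detected, at a TPM of at least 1 in both libraries. The share of nuclear protein coding genes that met this limit was 52.3%, and of all named genes 22.6%. The mean TPM was under 1 for 9 genes, 1 to 10 for 11, 10 to 100 for 11, 100 to 1000 for 7 and 1000 or more for 3. The 3 highest held 77.1% ± 3.26 of collagen TPM and the 10 highest 94.1% ± 0.0852, so the remaining 31 genes shared a small part of it. The highest gene was Col1a1 and the lowest Col6a4, which rested on 9 counts in replicate 1 and 8 in replicate 2. The order of the genes was much the same in both libraries (Spearman rho 0.988 over 41 genes, which share their libraries and are not independent). Of the 40 pairs of neighbours in that order, 8 did not overlap between their libraries, among them Col3a1 over Col4a1 and Col4a1 over Col6a2. Only 23 of the 40 pairs kept the same order in both libraries. Col1a2 and Col3a1 were among the pairs that did not.

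**Figure D2:**
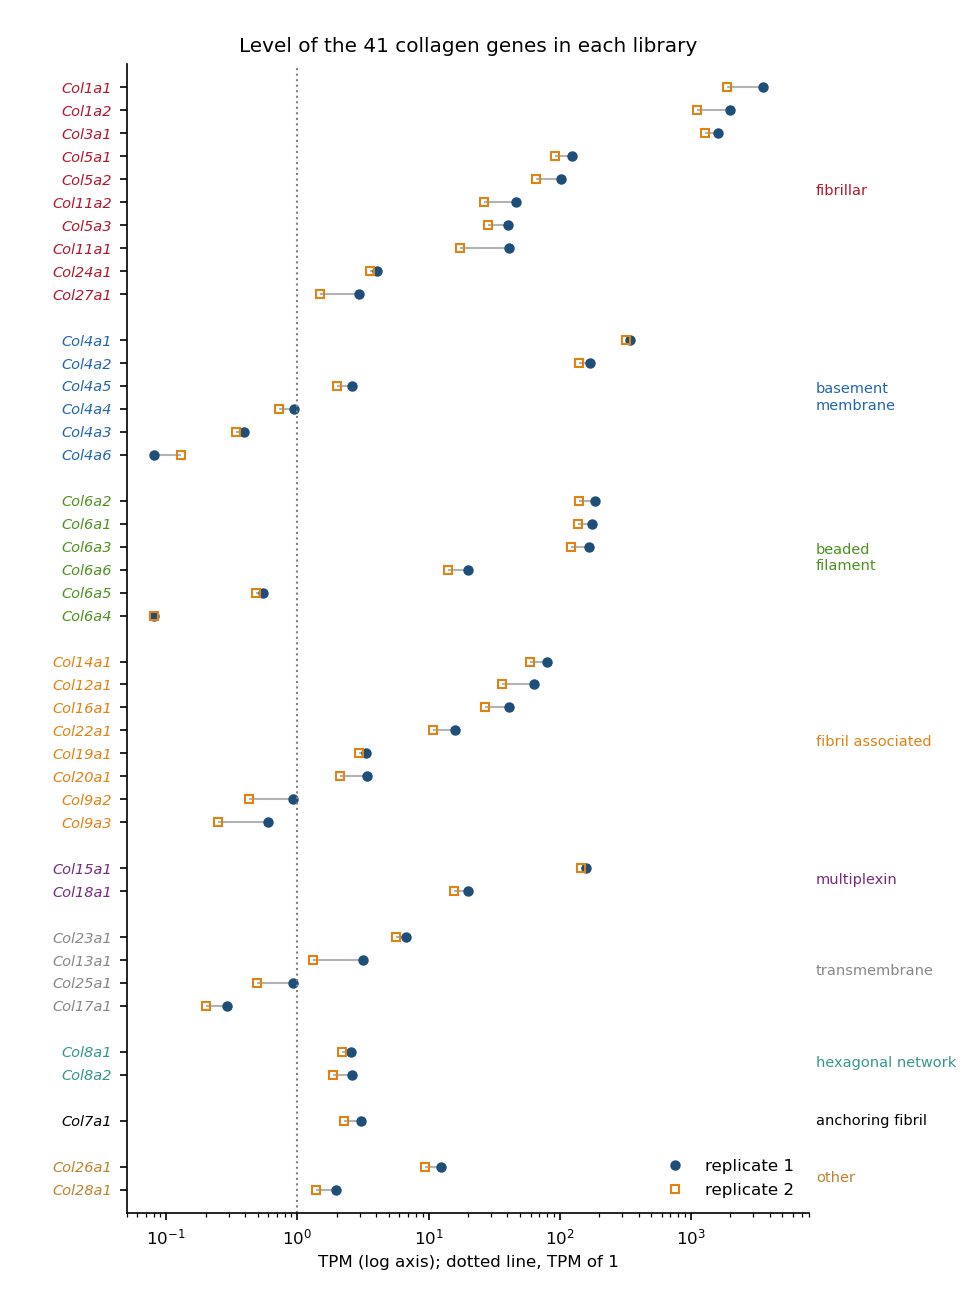
TPM on a log axis of each of the 41 collagen genes in replicate 1 (filled circles) and replicate 2 (open squares), grouped and coloured by class, with a dotted line at a TPM of 1. Col1a1, Col1a2 and Col3a1 lie above 1000 in both libraries, and 9 genes lie left of the line on average.

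The fibrillar class dominated. Its 10 genes, all detected, held 83.5% of collagen TPM in replicate 1 and 78.9% in replicate 2 (81.2% ± 3.21). Col1a1, the α1 chain of type I collagen, stood at a TPM of 3542 in replicate 1 and 1887 in replicate 2, and was the 15th most abundant nuclear protein coding gene by mean TPM. Col1a2, the α2 chain, stood at 1983 and 1123. Together type I made up 61.5% of collagen TPM in replicate 1 and 52.5% in replicate 2. Col3a1, the only chain of type III collagen, which forms thin fibrils in stretchable tissues and in the connective tissue around muscle fibres, stood at 1617 and 1277. Its share was 18.0% in replicate 1 and 22.3% in replicate 2, so the shares of types I and III moved in opposite directions.

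Type V and type XI chains, minor partners that start fibrils and limit their width, were lower by an order of magnitude or more. Col5a1 stood at a TPM of 124 in replicate 1 and 92.0 in replicate 2. Col5a2 stood at 102 and 65.6, and Col5a3 at 40.2 and 28.4. The type XI genes, best known from cartilage fibrils, were present at about the level of Col5a3 in replicate 1: Col11a1 stood at 40.9 and Col11a2 at 46.7. In replicate 2 they stood at 17.3 and 26.3, below Col5a3. The most recently described fibrillar genes were close to the detection level, with Col24a1 at 4.04 and 3.55 and Col27a1 at 2.93 and 1.49.

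The basement membrane class held 6.94% ± 1.69 of collagen TPM, with 5.74% in replicate 1 and 8.14% in replicate 2. Nearly all of it was Col4a1 and Col4a2, the chains of the type IV network found in basement membranes throughout the body. Col4a1 stood at a TPM of 343 in replicate 1 and 322 in replicate 2, and Col4a2 at 169 and 141. The other chains, which in kidney and in smooth muscle make networks of their own, were near or below the detection level. Col4a5 stood at 2.60 and 2.02, Col4a4 at 0.94 and 0.72, Col4a3 at 0.39 and 0.34, and Col4a6 at 0.08 and 0.13. Few counts limit the precision of the lowest genes, and Col4a6 rested on 15 in replicate 1 and 28 in replicate 2.

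The beaded filament class, type VI collagen, held 6.69% ± 0.810. In humans, mutations in the genes of its α1, α2 and α3 chains cause inherited muscle diseases. The 3 genes were at nearly the same level: Col6a1 stood at a TPM of 177 in replicate 1 and 139 in replicate 2, Col6a2 at 185 and 141, and Col6a3 at 167 and 121. Of the chains related to α3, Col6a6 stood at 19.9 and 14.0. Col6a5, at 0.55 and 0.48, and Col6a4, at 0.08 in both libraries, were below the detection level.

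Fibril associated collagens, which bind to the surface of fibrils and do not form fibrils alone, held 2.37% ± 0.0852. Col14a1 stood at a TPM of 79.6 in replicate 1 and 59.3 in replicate 2, and Col12a1, whose human counterpart is mutated in a disease of muscle and connective tissue, at 63.3 and 36.5. Col16a1 stood at 40.9 and 27.1. Col22a1, described in mouse at the junction between muscle and tendon, stood at 15.8 and 10.8. Col19a1 stood at 3.33 and 2.96 and Col20a1 at 3.38 and 2.11, just above the detection level. Col9a2 and Col9a3, chains of a cartilage collagen whose remaining chain gene was set aside, were below it at 0.92 and 0.60 in replicate 1 and 0.43 and 0.25 in replicate 2.

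The multiplexins, basement membrane collagens with glycosaminoglycan side chains, held 2.40% ± 0.577. Col15a1, whose loss in mice causes a mild muscle disease, stood at a TPM of 159 in replicate 1 and 145 in replicate 2. Col18a1, the source of the fragment endostatin, stood at 19.9 and 15.6. The transmembrane class held 0.129% ± 0.00735. Col23a1 led it at 6.73 and 5.67. Col13a1, which in mouse and human helps form the neuromuscular junction, stood at 3.17 and 1.32, and Col25a1, needed in mice for motor axons to enter muscle, at 0.93 and 0.49. Col17a1, a component of the attachment of skin cells to their basement membrane, stood at 0.29 and 0.20.

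The remaining classes were small. Col8a1 and Col8a2, chains of the hexagonal network under corneal and vascular endothelium, stood at 2.57 and 2.60 in replicate 1 and at 2.17 and 1.86 in replicate 2. Col7a1, the anchoring fibril collagen of skin, stood at 3.05 and 2.28. Keratinocyte markers had a summed TPM of 9.98 in replicate 1 and 9.86 in replicate 2 over 8 genes. Of these, 3 were detected: Trp63 at 4.64 and 5.15, Krt10 at 2.50 and 2.57, and Krtdap at 2.67 and 1.93. The defining keratins of basal cells were at or near 0, with Krt14 at 0 in replicate 1 and Krt5 at 0 in replicate 2, as was Krt1. Col26a1 stood at 12.4 and 9.46 and Col28a1, known in mouse from peripheral nerve, at 1.96 and 1.39.

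**Figure D3:**
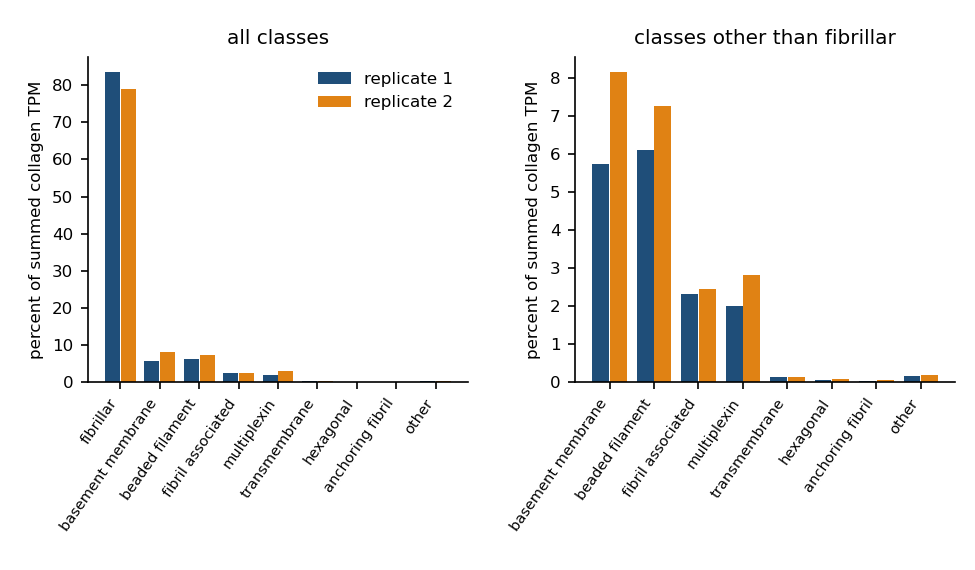
Percent of summed collagen TPM held by each class in replicate 1 (blue) and replicate 2 (orange), for all classes on the left and without the fibrillar class, on a wider scale, on the right. The fibrillar share is 83.5% in replicate 1 and 78.9% in replicate 2, and the basement membrane share 5.74% and 8.14%.

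The classes shifted against each other between the libraries. The plot of class shares shows the fibrillar class higher in replicate 1 and the basement membrane, beaded filament and multiplexin classes higher in replicate 2. Summed TPM was lower in replicate 2 for each of these classes: it went from 7503 to 4521 for the fibrillar class, from 516 to 466 for the basement membrane, from 550 to 416 for the beaded filament and from 179 to 161 for the multiplexin class. Fibrillar shares by the other measures were 80.5% from kallisto-format TPM, 82.0% from expected counts and 81.0% from posterior mean TPM.

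Ratios were next taken between chains that share a molecule or are related by type. A pair was given a direction if its log2 ratio kept its sign between libraries and its mean exceeded its SD, which held for 16 of 17 pairs. The rule sets no minimum size, and how often other pairs of genes meet it was not computed. Type I collagen is a trimer with more α1 than α2 chains. The TPM of Col1a1 over Col1a2 was 1.79 in replicate 1 and 1.68 in replicate 2, a log2 ratio of 0.79 ± 0.06, although the level of each gene differed by more between the libraries. Type IV collagen is also a trimer with more α1 than α2. Col4a1 over Col4a2 was 2.03 and 2.28, a log2 ratio of 1.10 ± 0.12. Kallisto-format values gave 1.46 and 1.41 for type I and 2.58 and 3.29 for type IV, so the size of these ratios depended on the quantification and their direction did not.

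The type VI chains join in equal numbers, and their genes were close to equal. Col6a1 over Col6a2 had a log2 ratio of -0.04 ± 0.03 and Col6a3 over Col6a1 of -0.14 ± 0.08. Col5a1 exceeded Col5a2 at 0.38 ± 0.15, and Col5a3 lay below Col5a1 at -1.66 ± 0.05. Col11a1 lay below Col11a2 at -0.40 ± 0.29 (0.874 in replicate 1 and 0.657 in replicate 2). For this pair the kallisto-format ratio was 1.03 in replicate 1 and 0.743 in replicate 2, so no direction was called there. Col8a1 and Col8a2 had no direction, at 0.10 ± 0.17, but Col8a1 was higher in the kallisto-format tables (0.14 ± 0.11), where 14 of 17 pairs had a direction.

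The remaining pairs set related collagens against each other or rest on few counts. Col3a1 lay below Col1a1 at a log2 ratio of -0.85 ± 0.40, with 0.456 in replicate 1 and 0.677 in replicate 2. Col4a5 lay below Col4a1 at -7.18 ± 0.19. Col4a5 exceeded Col4a6 at 4.49 ± 0.75, on few counts and with ratios of 32.5 and 15.5 that differ over 1.5 times between libraries. Col15a1 exceeded Col18a1 at 3.11 ± 0.15. Col22a1 exceeded Col19a1 at 2.06 ± 0.27, Col12a1 lay below Col14a1 at -0.52 ± 0.26, and Col25a1 below Col13a1 at -1.60 ± 0.24. Col4a3 lay below Col4a4 at -1.18 ± 0.13 and Col9a2 above Col9a3 at 0.70 ± 0.12, and neither pair had a direction in the kallisto-format tables (-0.35 ± 0.41 and 0.30 ± 0.60).

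**Figure D4:**
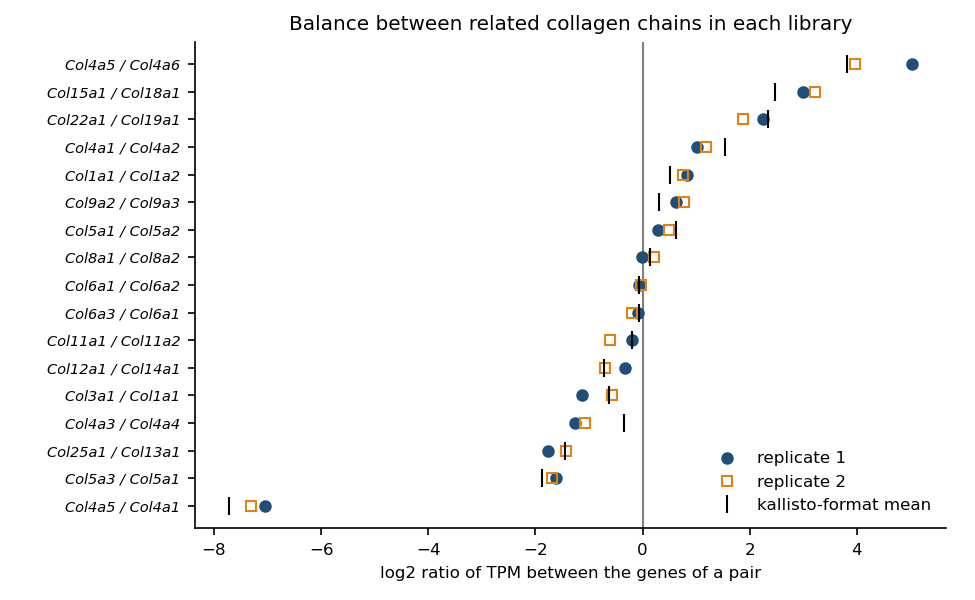
Log2 ratio of TPM between the genes of 17 collagen pairs in replicate 1 (filled circles) and replicate 2 (open squares), with the mean from the kallisto-format tables as a bar. Col6a1 over Col6a2 lies at -0.04 on average and Col4a5 over Col4a6 at 4.49, and the replicates of Col1a1 over Col1a2 nearly coincide.

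Partner genes of type IV collagen lie side by side in the genome, in a head to head arrangement. In the annotation Col4a1 on the minus strand and Col4a2 on the plus strand of chromosome 8 overlap by 22 bases at their starts, Col4a4 and Col4a3 on chromosome 1 are 71 bases apart, and Col4a6 and Col4a5 on the X chromosome 1308 bases apart. The shared and the intervening bases are shown on the plus strand, at chr8:11312805-11312826 and chr1:82586850-82586920, with GC box letters in capitals.
Col4a1 and Col4a2: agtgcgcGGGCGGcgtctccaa
Col4a4 and Col4a3: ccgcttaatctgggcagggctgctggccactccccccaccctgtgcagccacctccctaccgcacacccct

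The bases shared by Col4a1 and Col4a2 have a GC content of 72.7% and those between Col4a4 and Col4a3 of 69.0%. Both pairs have this arrangement, with the first at a mean TPM over 100 and the second below the detection level. Promoter motifs were searched for on both strands, the GC box by the letters GGGCGG and further common promoter elements by the letters CCAAT and TATAAA, with matches kept where they overlap another motif, in RefSeq promoter windows of build GRCm38.p6, 250 bases before to 50 after each start, of which 35 belong to 33 of the collagen genes. GGGCGG occurred in 65.7% of the collagen windows and in 35.7% of all 32851 windows. CCAAT occurred in 34.3% against 37.4%, and TATAAA in 11.4% against 13.6%. Among the other neighbours, Col3a1 and Col5a2 lie tail to tail on chromosome 1 with 24614 bases between them, Col6a2 and Col6a1 lie in the same direction on chromosome 10, and Col6a6, Col6a5 and Col6a4 lie in a row on chromosome 9.

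Transcript forms were read for the 21 genes with a mean TPM of at least 10, as the percent of a gene's abundance that each transcript held. The same transcript led in both libraries for all 21 genes, and for 20 of them it also led in the kallisto-format tables; the exception was Col16a1. Its leading transcript, Col16a1-207, holds no coding sequence and had 24.3% ± 0.566 of the abundance but 6.22% ± 0.332 of the reads. The coding Col16a1-201 had 19.8% ± 2.25 of the abundance and 35.3% ± 5.06 of the reads. In replicate 2 a further form, Col16a1-209, had 19.55% of the abundance, above Col16a1-201 at 18.22%. Their order was the reverse in replicate 1, at 8.83% and 21.4%. A transcript with at least 90% of the abundance led 9 genes, among them Col1a1-201 at 99.2% ± 0.346, Col1a2-201 at 95.7% ± 2.20, Col4a2-201 at 99.6% ± 0.361 and Col6a1-201 at 99.6% ± 0.325. In the kallisto-format tables Col1a2-201 held 81.7%, with Col1a2-205 at 16.9%. Col5a1-201, also among the 9, held 79.5% there, with Col5a1-202 at 20.5%. The rest of the 9 stayed at 90% or more.

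Several genes had more than 1 long coding form. Col6a3-202, of 2677 codons, held 51.5% ± 1.76 of the abundance of Col6a3 and 82.0% ± 1.28 of its reads. The longest form, Col6a3-201 with 3284 codons, held 4.24% ± 1.25 and 7.60% ± 2.38 of the reads, and 9.58% ± 1.59 of the abundance in the kallisto-format tables. It has 4 coding exons or exon parts, 611 codons in all, that Col6a3-202 lacks. Col18a1-202, the short form with 1315 codons, held 74.9% ± 1.18 and the long form Col18a1-201, with 1774 codons, 16.0% ± 1.41. In the kallisto-format tables these shares were 43.5% ± 1.39 and 12.3% ± 1.70 and Col18a1-204, of 161 codons, held 33.1% ± 0.271.

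Col11a2-201 led its gene at 51.4% ± 5.51, ahead of Col11a2-204 at 31.1% ± 4.04, which has 2 more coding exons of 86 codons together. Col12a1-201 and Col12a1-202, with 3065 and 3064 codons, held 41.3% ± 0.573 and 23.4% ± 0.127. A short form of 313 codons, Col12a1-204, held 33.1% ± 0.912 of the abundance and 7.29% ± 0.160 of the reads, and 19.1% ± 1.26 of the abundance in the kallisto-format tables. Other minor forms also differed over 1.5 times between the tables. Col3a1-205 held 16.0% in the RSEM-format and 37.5% in the kallisto-format tables, Col6a3-206 20.8% and 37.1%, Col6a3-207 15.3% and 7.49%, Col4a1-203 21.2% and 11.9%, and Col15a1-203 18.3% and 0, and Col3a1-207 was also at 0 in the kallisto-format tables. Short forms weigh more per transcript than per read in other genes too. Col3a1-201 held 72.4% ± 0.424 of the abundance and 96.4% ± 0.0155 of the reads, and Col4a1-201 75.2% ± 4.60 and 97.4% ± 1.01.

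Reads of some members can fall to another gene annotated on the same strand. Gm47302, annotated as a microRNA gene of 141 bases (chr1:45311673-45311813, mm10), lies wholly in exon 1 of Col3a1 and spans its start codon at 45311748. It was given 2666 expected counts in replicate 1 and 2643 in replicate 2, which is 1.42% and 1.58% of the Col3a1 count, and 0 in the kallisto-format tables. Because of its short length this came to a TPM of 2251 and 1961, above Col3a1 itself. BX649560.1 shares 741 bases with Col20a1 and lies partly outside it. Its count was 76.1% of the Col20a1 count in replicate 1 and 66.9% in replicate 2. How much of that count fell in the shared bases is not known, so the level of Col20a1 is uncertain. Gm43921, which overlaps Col1a2 over 1792 bases, had 655 counts in replicate 1 and 202 in replicate 2, at most 0.227% of the Col1a2 count. The microRNA genes Mir455 and Mir711, inside Col27a1 and Col7a1, were at 0.

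The libraries were compared on counts scaled with TMM, a method that assumes no change in most genes, as log2 of replicate 2 over replicate 1. This ratio differs from the ratio of TPM, which was lower in replicate 2 for every collagen gene except Col4a6 and Col6a4. Summed TPM of 10 fast muscle genes, led by Acta1, Mylpf and Myl1, was 98012 in replicate 1 and 114454 in replicate 2, and TPM is a share of a fixed total. A mean count of at least 100 was met by 35 of the 41 genes. The others were Col4a3, Col4a6, Col6a4, Col9a2, Col9a3 and Col17a1. The ratio was below 0 for 28 of the 35, where 37.3% of all 11759 genes with that count were below 0. The median was -0.17 for the 35 genes and 0.08 for all genes. The central 95% of all genes ran from -0.59 to 0.56.

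A difference of at least 2-fold was met by Col13a1, lower in replicate 2, and by no collagen gene in the other direction; among all genes 0.808% were at least 2-fold lower and 0.213% at least 2-fold higher. Col13a1 had 246 counts in replicate 1 and 109 in replicate 2, a log2 ratio of -1.08. Its 95% exact binomial interval of -1.42 to -0.75 covers counting error only. At least 1.5-fold lower were 7 genes, against 2.57% of all genes: Col13a1, Col11a1 (-0.97), Col25a1 (-0.67), Col11a2 (-0.66), Col1a1 (-0.63), Col27a1 (-0.62) and Col1a2 (-0.59). Of these Col25a1, with 131 and 77 counts, met the mean count limit only through replicate 1. No collagen gene was 1.5-fold higher, where 1.88% of all genes were. The number 1.5-fold lower depends on the scaling: 7 with DESeq2 size factors (2.68% of all genes), 11 with library totals (7.01%), 17 with spike-in counts (14.9%) and, of 36 genes, 5 in the kallisto-format tables (3.33%). With 1 library on each side these ratios have no replicate check.

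**Figure D5:**
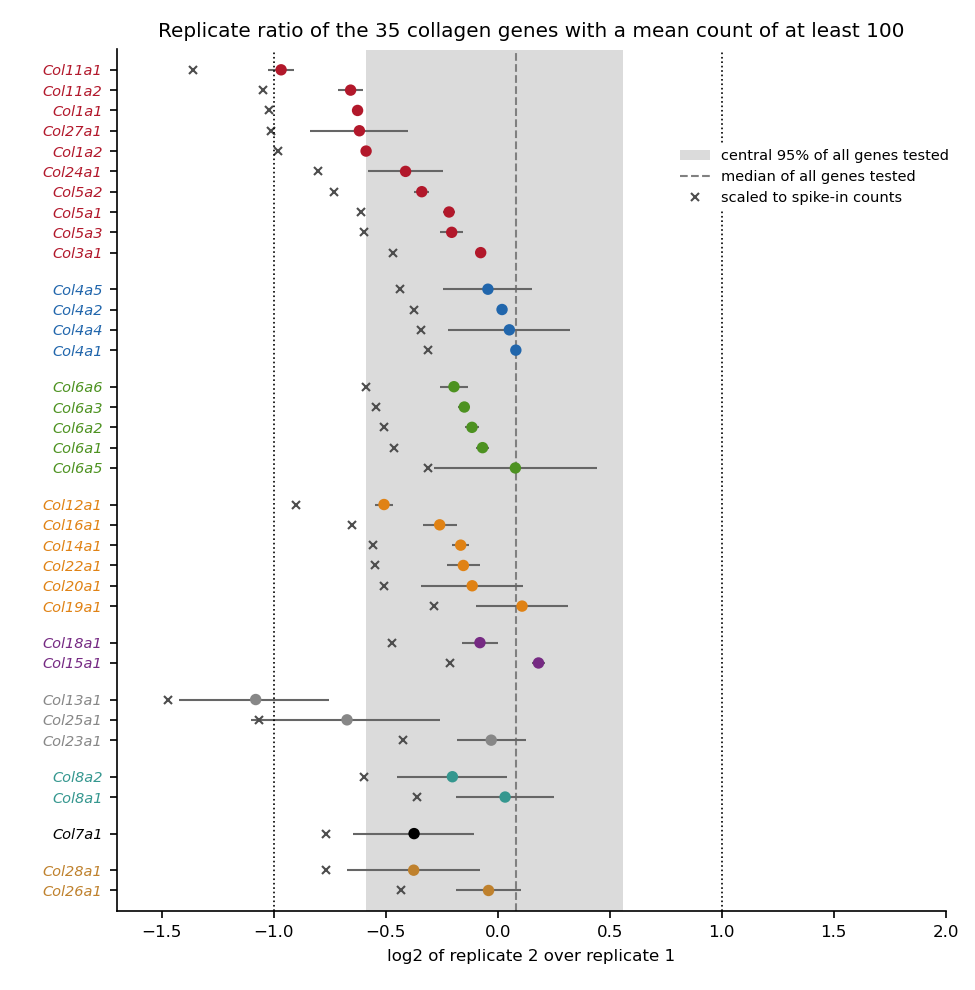
Log2 of replicate 2 over replicate 1 for the 35 collagen genes that reached a mean count of 100, scaled with TMM (coloured points, with 95% exact binomial intervals for counting error as lines) or with spike-in counts (crosses). The grey band holds the central 95% of all genes tested, the dashed line is their median and dotted lines mark 2-fold. Fibrillar genes lie between -0.97 and -0.08 on the TMM scale and Col4a1 and Col15a1 at 0.08 and 0.18.

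The plot of replicate ratios shows classes with different medians and overlapping ranges. All 10 fibrillar genes were lower in replicate 2, with a median of -0.50, and were so under each of the other scalings and in the kallisto-format tables. The share of all genes below 0 was 39.2% with DESeq2 size factors and 32.9% in the kallisto-format tables, where 28 of 35 and 27 of 36 collagen genes were below 0. Within the class, Col11a1 went from 7027 counts to 3376, Col1a1 from 576681 to 351047 and Col1a2 from 287919 to 179949. Col3a1 was the fibrillar gene nearest to no change, at -0.08, with 187927 and 167450 counts. The 3 transmembrane genes with enough counts were also lower under each scaling and in the kallisto-format tables, at a median of -0.67 and from -1.08 to -0.03, on 77 to 717 counts each. Of the 4 type IV genes with enough counts 1 was lower with TMM, and they lay between -0.04 and 0.08. Col4a1 had 50388 counts in replicate 1 and 50057 in replicate 2. Type VI genes lay between -0.20 and 0.08 and fibril associated genes between -0.51 (Col12a1, 13584 and 8974 counts) and 0.11 (Col19a1). Col15a1 had the highest ratio, 0.18, with 18723 and 19952 counts. The 28 genes below 0 with TMM were also below 0 with DESeq2 size factors, library totals and spike-in counts, and all but Col4a5 and Col26a1 were in the kallisto-format tables. The sign of the 7 genes above 0 depends on the scaling, since spike-in counts shift every gene by -0.39 and library totals by -0.24. With either, all 35 genes were lower in replicate 2, where 90.2% and 73.9% of all genes were. At least 2-fold lower were then 6 collagen genes with spike-in counts, against 2.32% of all genes, and 2 with library totals, against 1.46%. Size factors of DESeq2 and kallisto-format counts gave 1 each, against 0.842% and 1.14%.

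Markers of bone, from bone-forming and bone-resorbing cells, moved in the same direction as the fibrillar genes and much further. All 13 bone markers had a higher TPM in replicate 1, where they summed to 439 against 15.8 in replicate 2, and 11 of 11 with enough counts were at least 2-fold lower in replicate 2, against 0.808% of all genes. They were Spp1, Ctsk, Bglap, Acp5, Ibsp, Mmp13, Bglap3, Dmp1, Alpl, Phex and Sp7. Of these only Ctsk, with 3133 and 496 counts, and Dmp1, with 1224 and 145, had at least 100 counts in both libraries. The others met the mean count limit only through replicate 1, so the 2 shares are not on equal terms. Ibsp, Bglap, Bglap3 and Mepe were at 0 in replicate 2, and Bglap2 had 197 counts and 1. Cartilage markers summed to 27.2 in replicate 1 and 20.3 in replicate 2. Among them Col2a1 had 1923 and 1750 counts, and Col10a1, a gene of hypertrophic cartilage, 179 and 0. Chad and Acan were the other leading genes of that list, and Col9a1 had 34 counts and 14. Markers of other collagen-producing cells moved less: fibroblast markers, led by Dcn, Gsn and Mfap5, summed to 637 and 554, with a median ratio of -0.00. Tendon markers, led by Fmod, Tnmd and Thbs4, summed to 330 and 275, with 0.06, and endothelial markers, led by Cdh5, Egfl7 and Pecam1, to 307 and 255, with 0.07. Of 5 adipocyte markers with enough counts all were lower in replicate 2. Plin1, with 331 counts in replicate 1 and 91 in replicate 2, and Cfd, with 232 and 92, were at least 2-fold lower. Both met the mean count limit only through replicate 1. Cidec and Lep, with 72 and 42 counts in replicate 1, had 27 and 12 in replicate 2. Fabp4 and Plin4, the leading genes of the list, lay at -0.09 and -0.02. Pericyte and smooth muscle markers, led by Des, Acta2 and Rgs5, summed to 1173 and 1313, with a median ratio of 0.12. Des, at a TPM of 665 in replicate 1 and 751 in replicate 2, and Acta2, at 229 and 314, made this sum higher in replicate 2. The other 8 markers of the list had a higher TPM in replicate 1. The ratios of Des and Acta2 were 0.47 and 0.77, and the median ratio of the 10 fast muscle genes was 0.50. Which cells the RNA of Des and Acta2 came from was not tested. With spike-in counts every fibroblast, tendon and endothelial marker was lower in replicate 2, as were 90.2% of all genes. The part of any of these cell types in the collagen ratios was not tested.

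Genes that process collagen chains were expressed alongside them. All 23 genes of chain modification and folding were detected, led by Sparc, a collagen-binding matrix protein, at a TPM of 1242 in replicate 1 and 879 in replicate 2. P4hb, a subunit of the prolyl hydroxylase that stabilises the helix, stood at 183 and 150, and Serpinh1, the collagen chaperone HSP47, at 184 and 129. Of the 23 genes 15 were lower in replicate 2, none 2-fold, with a median ratio of -0.16, where 37.3% of all genes were lower; the kallisto-format tables gave 13 of 23, against 32.9%. Of 13 genes of propeptide cleavage and crosslinking 11 were detected, led by Pcolce, an enhancer of procollagen C-proteinase, at 173 and 121. Loxl2 and Lox, which crosslink fibrils, came next, and 9 of 12 genes with enough counts were lower in replicate 2, in the kallisto-format tables as well. Loxl4 was the only one at least 2-fold lower, with 190 and 70 counts, and met the mean count limit only through replicate 1. Among all genes 37.3% were lower and 0.808% at least 2-fold lower. Of 12 receptor and uptake genes 10 were detected, led by the integrin chain Itgb1, the uptake receptor Mrc2 and the collagen receptor Ddr2, and 6 of 10 with enough counts were lower, with a median of -0.06, against 5 in the kallisto-format tables. With spike-in counts every gene of these 3 lists that had enough counts was lower in replicate 2, as were 90.2% of all genes.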

How the data were processed

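The authors deposited 3 tables per library, for genes and transcripts in RSEM's column format and for transcripts in kallisto's, on mm10 with GENCODE M21, per the text files beside them. Versions of the tools were not given in the sources used here. Expected counts and estimated counts in the deposited tables divide multiply matching reads by a model. TPM in the deposited tables is divided by effective length and brought to a fixed library total that includes the ERCC spike-ins, which took 0.720% and 0.798% of counts. The percent of abundance per transcript is also a deposited column. Kallisto-format values were summed per gene.

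Members were matched by symbol, and all 41 were found in both libraries. Shares, chain ratios and transcript shares were computed within each library. For the replicate ratio, rounded expected counts were turned into log2 CPM with TMM scaling and 0.5 as prior count (edgeR 4.0.16, R 4.3.3), after a check on simulated data. Alternatives were size factors of DESeq2 1.42.0, library totals, spike-in totals, kallisto-format values, other limits and leaving out each replicate. A count of 0 allows up to 3 counts, which is 0.0835 CPM in replicate 1 and 0.0751 in replicate 2. Intervals and this limit cover counting error only, since reads are not independent molecules. Glycine runs were read from the coding sequence of each gene's longest coding transcript in GENCODE M21, in place of the protein planned for it. The tables do not state how strand was used in counting, so reads of antisense genes cannot be told apart here. Values were computed with Python 3.11.15, pandas 2.3.3, numpy 2.4.6 and scipy 1.17.1, and figures with matplotlib 3.10.9.

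Named in full are the leading members of each class, every member at least 2-fold apart between libraries, and of the other lists the 3 highest by TPM and every member 2-fold apart, except those with under 30 counts in both libraries; members named beyond these were chosen after their values were seen. The Schwann cell list is not reported here. The members, classes and lists were chosen with earlier results of these data known.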

Additional observations from a re-analysis of the deposited data

How the results depend on the processing

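The number of collagen genes at least 2-fold lower in replicate 2 was 1 with TMM, 1 with DESeq2 size factors and 1 with kallisto-format counts, but 2 with library totals and 6 with spike-in totals, and a 1.5-fold limit gave 7. The number detected was 32 in kallisto-format TPM, 33 at a TPM of at least 0.5 and 40 at an expected count of at least 10. Fibrillar, basement membrane and beaded filament shares moved by less than their SD under every other measure run. The fibril associated share, 2.37% ± 0.0852, moved by more than its SD, to 2.14% from kallisto-format TPM and 2.55% from expected counts. Of 17 chain ratios, 10 moved by more than their SD in the kallisto-format tables and 3 with a pseudocount of 0.1, and none changed sign in either setting. Without replicate 2 the log2 ratio of Col8a1 over Col8a2 changed sign, from 0.10 to -0.02. Leaving out replicate 1 or 2 returns the values of the other library and so adds no separate check. These were fibrillar shares of 78.9% to 83.5% and basement membrane shares of 5.74% to 8.14%, and 32 genes detected in each. No paired analysis was possible because the series has 1 group. No p was given, since a sign-flip test over 2 libraries cannot go below 0.5, and the cause of the differences between settings was not tested beyond the shift that each scaling applies to every gene.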
